A study of Mus musculus with 35 samples.

Results

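Monocytic myeloid-derived suppressor cells (M-MDSC) from pancreatic tumors of mice given poly(I:C)c were compared with those from untreated mice, using all 7 usable RNA sequencing libraries of this cell type and place (3 treated and 4 untreated) among the 34 usable libraries of the series. The libraries were chosen by cell type, tumor origin and treatment in the column names. Another treated library held 10 counts in all and was left out. Of 53379 genes in the table, the 8360 whose counts averaged 25 or more across the 7 libraries were tested, with edgeR's quasi-likelihood F-test and Benjamini-Hochberg adjustment. A gene is said to have risen or fallen where its adjusted p was under 0.05.

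All mice were female C57BL/6 animals, according to the methods, that carried an orthotopic tumor of T110299 cells, a single line derived from a pancreatic tumor of the KPC mouse, whose alleles include a Ptf1a-Cre driver and p53 fl/R172H. Treated mice received 50 µg poly(I:C) complexed with polyethylenimine intravenously on days 18 and 20 after tumor induction. By the treatment protocol in the labels and the methods, control mice received glucose; the sample labels call them untreated, and the study's account of the sequencing says that they were left without treatment. They are called untreated here. M-MDSC were sorted as CD11b+ Ly6C high Ly6G- cells after enrichment of CD11b+ cells, and each library is a sorted bulk population. The ages of the mice behind single libraries are not given in the labels. The sample titles give the same numbers to spleen and tumor cells, which reads as a mouse number. The columns of the count table carry running numbers instead. Those of the sorted populations, unlike those of bulk tumor, fall in runs of at most 4 that each hold different populations under 1 treatment. No label says that a run is a mouse, so libraries were assigned to groups and not to mice, and the runs served as an assumed mouse in an alternative fit only. The p-values measure the spread between these libraries.

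The agent, poly(I:C), imitates the double-stranded RNA of viruses. Cytosolic RNA receptors of the RIG-I family, above all MDA5, recognize such RNA and start the production of type I interferon. Interferon binds its receptor on the same and on other cells, and the JAK kinases and STAT proteins then switch on many interferon-stimulated genes through the interferon-stimulated response element in their promoters. M-MDSC are immature cells of the monocyte lineage that accumulate in tumors and restrain T cells through nitric oxide, prostaglandins, adenosine and checkpoint ligands.

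The interferon-stimulated response element was searched as GAAA, any 2 bases and again GAAA, on both strands of RefSeq promoters on GRCm38.p6. Of the 152 genes that rose, 114 had a promoter in the table, and 25 of these held the motif (21.9%). Of the 89 genes that fell, 62 had a promoter and 1 held it (1.61%). Among all tested genes with a promoter, 4.5% held the motif in at least 1 promoter (285 of 6337). Counted by single promoters instead of genes, it stood in 3.44% of all promoters of the same length (1131 of 32851). These are descriptions without a test, and a match is not a bound site. To show what the match looks like in genes that rose, the 250 bases before the start site follow for the 5 genes with the largest fold changes that hold it, 5′ to 3′ on the strand of the gene, with capitals on the motif or its reverse complement.
Saa3, chr7:46715677-46715926, minus strand: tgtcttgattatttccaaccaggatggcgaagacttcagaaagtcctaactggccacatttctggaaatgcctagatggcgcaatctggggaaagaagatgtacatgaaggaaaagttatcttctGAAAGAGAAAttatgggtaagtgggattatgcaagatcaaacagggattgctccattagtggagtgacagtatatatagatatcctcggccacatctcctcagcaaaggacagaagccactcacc
Ifit1bl1, chr19:34601969-34602218, minus strand: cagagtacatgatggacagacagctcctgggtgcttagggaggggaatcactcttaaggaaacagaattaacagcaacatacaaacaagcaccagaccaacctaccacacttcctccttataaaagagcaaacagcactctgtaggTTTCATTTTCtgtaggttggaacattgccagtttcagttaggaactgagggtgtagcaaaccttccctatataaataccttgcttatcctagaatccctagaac
Ifit3b, chr19:34607707-34607956, plus strand: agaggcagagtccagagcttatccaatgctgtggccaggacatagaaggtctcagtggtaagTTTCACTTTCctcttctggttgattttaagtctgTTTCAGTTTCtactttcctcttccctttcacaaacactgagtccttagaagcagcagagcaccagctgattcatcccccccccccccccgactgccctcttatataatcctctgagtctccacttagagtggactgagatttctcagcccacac
Ifit3, chr19:34583279-34583528, plus strand: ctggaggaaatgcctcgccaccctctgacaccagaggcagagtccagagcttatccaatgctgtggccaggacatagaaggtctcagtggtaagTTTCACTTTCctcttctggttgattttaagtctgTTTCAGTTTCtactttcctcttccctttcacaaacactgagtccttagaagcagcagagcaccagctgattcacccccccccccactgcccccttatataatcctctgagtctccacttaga
Rsad2, chr12:26456453-26456702, minus strand: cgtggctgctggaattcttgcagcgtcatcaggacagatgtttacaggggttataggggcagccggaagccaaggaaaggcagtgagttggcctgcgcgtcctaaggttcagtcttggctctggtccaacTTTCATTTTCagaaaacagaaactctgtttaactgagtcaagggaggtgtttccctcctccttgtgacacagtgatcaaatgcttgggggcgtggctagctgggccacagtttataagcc
Saa3 encodes an acute-phase serum amyloid, and its motif began 125 bases before the start site (chromosome 7, minus strand). The other 4 genes belong to antiviral families: Ifit1bl1, Ifit3b and Ifit3 encode proteins with tetratricopeptide repeats that bind viral RNA, and Rsad2 encodes viperin, a radical SAM enzyme. The neighbors Ifit3 and Ifit3b on chromosome 19 each held the motif 2 times, beginning 156 and 122 bases before the start in Ifit3 and 188 and 154 bases before it in Ifit3b. They are close paralogs, so the split of reads between them is uncertain.

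Before the results, 2 libraries have to be described, a treated one first. Ly6c2 encodes Ly6C, the antigen on which these cells were sorted. Levels are given as CPM, the counts scaled to a common library size. Ly6c2 stood at 144, 153, 83.5 and 44.3 CPM in untreated libraries 1 to 4 and 619, 2.91 and 437 CPM in treated libraries 1 to 3. Treated library 2 therefore held almost no Ly6c2 transcript, below each of the 4 untreated libraries and of both other treated libraries. It also held the least Vcan and Ccr2, genes of classical monocytes, and the most C1qa and Apoe, genes of tissue macrophages. C1qa stood at 134, 243, 336 and 206 CPM in untreated libraries 1 to 4 and 378, 2139 and 949 CPM in treated libraries 1 to 3. Over 8 macrophage markers the summed level was 3974 to 8679 CPM in untreated libraries and 5509, 28562 and 11283 CPM in treated libraries 1 to 3, with no marker at 0 in all 7. In log2 CPM, treated library 2 correlated with the other treated libraries at Pearson's r of 0.832 and 0.867, and these 2 with each other at 0.928. Untreated library 4, the shallowest, correlated with the other untreated libraries at 0.872 to 0.893, and these 3 with each other at 0.947 to 0.959. Both libraries are kept in the main comparison under their labels, and counts over the lists are given without each of them.

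**Figure D1:**
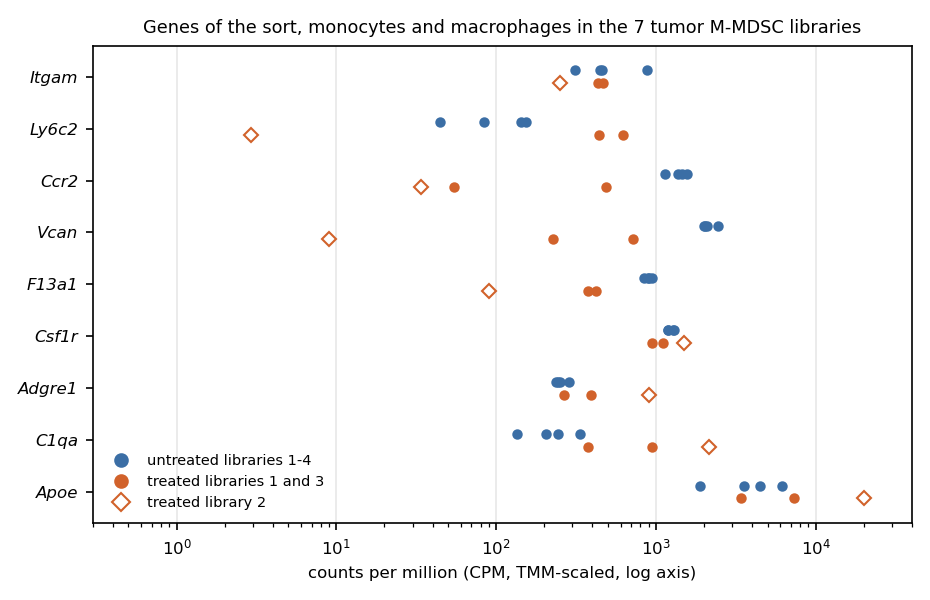
Level of 9 genes in each tumor M-MDSC library, in TMM-scaled CPM on a log axis, with 1 point per library. Treated library 2 (open diamond) lies at 2.91 CPM of Ly6c2 and 20056 CPM of Apoe, away from the other libraries.

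Itgam, which encodes the CD11b used for enrichment, stood at 458, 313, 448 and 875 CPM in untreated libraries 1 to 4 and 434, 251 and 469 CPM in treated libraries 1 to 3, and the groups overlapped. Ly6g was at most 1.46 CPM and Ly6c1 at most 5.03 CPM in any of the 7 libraries. For comparison on the scale of the library total, Ly6c2 ranged from 785 to 1014 CPM in treated and from 119 to 202 CPM in untreated M-MDSC of the spleen. It ranged from 67.5 to 245 CPM in treated and from 1.90 to 11.2 CPM in untreated PMN-MDSC of the tumor. Treated library 2 stood at 2.98 CPM on that scale, within the range of untreated PMN-MDSC of the tumor. Neutrophil markers summed to 278 to 890 CPM in untreated and 200 to 1346 CPM in treated tumor M-MDSC. T cell markers summed to 8.24 to 16.6 CPM in untreated libraries and reached 135 CPM in treated library 2. Eosinophil, basophil and mast cell markers reached 167 CPM in treated library 3, against 2.35 to 36.3 CPM in untreated libraries. NK cell markers summed to 5.30 to 29.1 CPM in untreated libraries and 79.4 CPM in treated library 3, and fibroblast markers to 4.15 to 42.1 CPM and 87.4 CPM. Erythroid and platelet markers summed to 9.69 to 30.9 CPM in untreated libraries and reached 69.9 CPM in treated library 2. The sums of the B cell, dendritic cell and acinar lists were at most 86 CPM in each library, and no treated library exceeded the highest untreated one. The markers Klra8, Siglech, Mcpt8 and Fcer1a were at 0 in all 7. The part of these other cells in the results was not tested. Total counts ran from 793070 (untreated library 4) to 4357105 (treated library 2), and 3 counts in a library correspond to 0.689 to 3.78 CPM. In sorted bulk populations, fewer cells of a type and less RNA per cell cannot be told apart.

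After poly(I:C)c, 152 genes rose (1.82% of 8360) and 89 fell (1.06%), 241 in all (2.88%). Interferon-stimulated genes and genes of MHC class I were among those that rose, beside chemokines, Nos2 and the checkpoint ligand Cd274. Among the genes that fell were Il1b, Ptgs2, Thbs1, Fn1 and Hif1a. All 241 had groups that did not overlap, against 19.5% of all tested genes (9.78% higher and 9.69% lower). The calls come from the same libraries, so this is a description and adds no support to them. At least 2-fold changes were seen in 141 and 79. At an unadjusted p under 0.05, 873 genes were higher and 733 lower. DESeq2 called 449 higher and 347 lower (5.37% and 4.15%, 9.52% in all), 151 of the 152 and all 89 among them. Without treated library 2, 222 rose and 138 fell (2.82% and 1.76% of 7860), and 123 of the 152 and 73 of the 89 were still called. All 141 of the genes that rose and 89 that fell which were tested in both fits kept their direction. Counts of calls also moved by over 1.5 times with other single libraries. They were 33 and 11 without untreated library 1 (0.387% and 0.129% of the genes tested there) and 54 and 34 without untreated library 2 (0.634% and 0.399%). They were 23 and 7 without untreated library 3 (0.281% and 0.0854%) and 52 and 24 without untreated library 4 (0.602% and 0.278%). Without treated library 1 they were 295 and 210 (3.52% and 2.5%), and without treated library 3 they were 25 and 10 (0.302% and 0.121%). In all 7 of these fits 25 genes were called. The median log2 fold change of all tested genes was -0.00054, and the lists that follow are to be read against this median and these percentages.

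**Figure D2:**
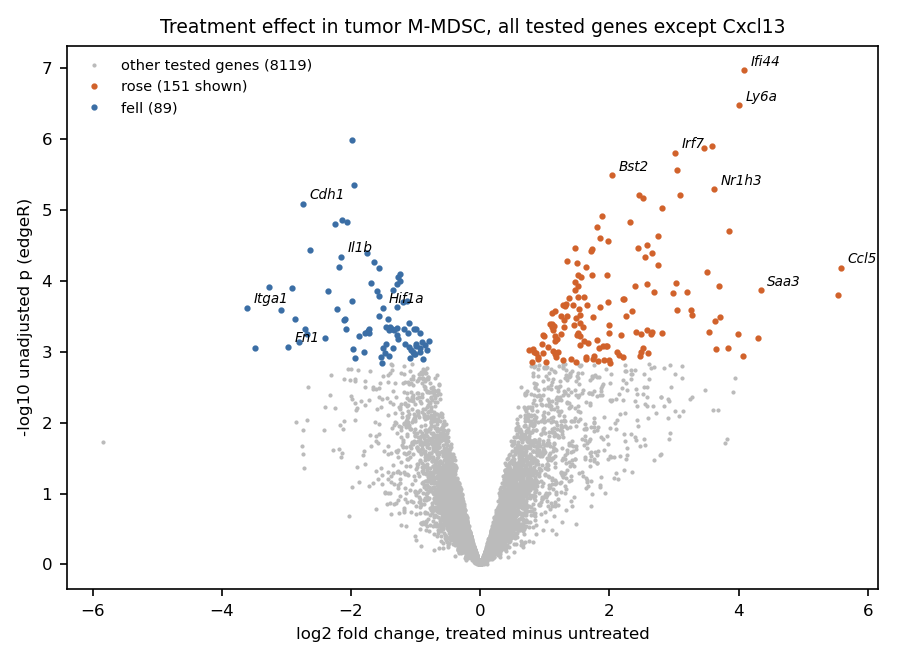
Treatment effect of each tested gene except Cxcl13: log2 fold change on the horizontal axis against -log10 of edgeR's unadjusted p on the vertical axis. The genes that rose (orange) reach further along both axes than those that fell (blue), with Ifi44 and Ly6a at the top of the plot.

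These 25 genes, chosen after their values were seen, comprised 19 that rose and 6 that fell. Those that rose were Ifi44, Ly6a, Htra4, Nr1h3, Ifit3, Cfb, H2-Q6, Fpr2, Irf7, Iigp1, Tlr3, Lgals3bp, Ccl12, Phf11b, Bst2, Siglec1, H2-T22, H2-Q7 and Ccnd2. Those that fell included Cdh1, Padi2, Gm45221 and Nav1. Nav1 was also the gene that fell and held the promoter motif.

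Of the genes that sense RNA and relay the signal, 4 of 19 tested members rose and 0 fell, with a median log2 fold change of 0.40 (7 and 0 of 19 without treated library 2, 2 and 0 without untreated library 4, 2 to 7 and 0 over the 7 fits that each left out 1 library). The unadjusted p (edgeR) was under 0.05 for 7 higher and 1 lower members, and DESeq2 called 7 and 1. Irf7, the transcription factor that amplifies interferon production, stood at 151, 139, 97.5 and 84.4 CPM in untreated libraries 1 to 4 and 1135, 683 and 1046 CPM in treated libraries 1 to 3. Every treated library lay above every untreated one (log2 fold change 3.01 ± 0.28 (SE), adjusted p = 0.00216). Tlr3, the endosomal receptor for double-stranded RNA, stood at 4.12, 3.51, 5.59 and 2.77 CPM in untreated libraries 1 to 4 and 19.3, 37.4 and 30.6 CPM in treated libraries 1 to 3 and rose (log2 fold change 2.75 ± 0.35 (SE), adjusted p = 0.00848). Ddx58, which encodes RIG-I, and Tlr7, the receptor for single-stranded RNA, also rose, with log2 fold change 1.51 ± 0.24 (SE), adjusted p = 0.0169 and log2 fold change 1.30 ± 0.25 (SE), adjusted p = 0.0305. Ifih1, which encodes MDA5, did not pass (log2 fold change 0.98 ± 0.25 (SE), adjusted p = 0.0678), and rose without treated library 2 (log2 fold change 1.19, adjusted p = 0.0225).

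In the list of receptors, kinases and transcription factors of the interferon response, which leaves out Irf7 (counted with the RNA sensors, where it rose), 0 of 18 tested members rose and 0 fell, with a median log2 fold change of -0.20 (1 and 0 of 18 without treated library 2, 0 to 1 and 0 to 2 over the 7 fits). Before adjustment, edgeR gave 2 higher and 4 lower members with p under 0.05, and DESeq2 called 0 and 3. The members with the smallest p were Ifngr1, a chain of the interferon gamma receptor (log2 fold change -0.90 ± 0.21 (SE), adjusted p = 0.056), the feedback inhibitor Socs3 (log2 fold change -1.19 ± 0.28 (SE), adjusted p = 0.056), the kinase Jak2 (log2 fold change -0.86 ± 0.22 (SE), adjusted p = 0.0657) and Stat2 (log2 fold change 0.76 ± 0.25 (SE), adjusted p = 0.132). Jak2 stood at 335, 247, 286 and 318 CPM in untreated libraries 1 to 4 and 176, 121 and 192 CPM in treated libraries 1 to 3, so the groups did not overlap although the adjusted p missed the threshold.

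Among antiviral effectors, 13 of 31 tested members rose and 0 fell, with a median log2 fold change of 1.20 (17 and 0 of 30 without treated library 2, 3 and 0 without untreated library 4, 2 to 17 and 0 over the 7 fits). In this list 18 members were higher and 1 lower at an unadjusted edgeR p under 0.05, and DESeq2 called 17 and 1. Ifit3, an RNA-binding effector, stood at 22.4, 25.9, 22.6 and 23.5 CPM in untreated libraries 1 to 4 and 253, 163 and 437 CPM in treated libraries 1 to 3 (log2 fold change 3.59 ± 0.33 (SE), adjusted p = 0.00216). Bst2 encodes tetherin, which holds budding virus particles at the cell surface. It stood at 25.3, 28, 23.5 and 16.6 CPM in untreated libraries 1 to 4 and 110.1, 92.3 and 91.8 CPM in treated libraries 1 to 3 (log2 fold change 2.04 ± 0.21 (SE), adjusted p = 0.0034). Every treated library lay above every untreated one for both genes. Ifit2 and Oasl1, a relative of the oligoadenylate synthetases, followed with log2 fold change 2.74 ± 0.39 (SE), adjusted p = 0.0128 and log2 fold change 3.21 ± 0.50 (SE), adjusted p = 0.0174. Ifit3b and Ifit1bl1 had log2 fold changes of 3.70 and 3.83, Rsad2 2.58, Isg20 2.48, Cmpk2 2.41, Oas1g 2.15 and Oasl2 1.48, and all 7 passed. Ifit1 (log2 fold change 2.62 ± 0.57 (SE), adjusted p = 0.0513) and Mx1 (log2 fold change 1.57 ± 0.37 (SE), adjusted p = 0.056), which inhibits incoming viruses, did not pass, and both rose without treated library 2 (log2 fold change 3.08, adjusted p = 0.00436 and log2 fold change 1.92, adjusted p = 0.00622). Ifitm1 did not pass either (log2 fold change -1.36 ± 0.38 (SE), adjusted p = 0.0828).

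Of the ISG15 system and other interferon-stimulated genes, 11 of 38 tested members rose and 0 fell, with a median log2 fold change of 1.05 (27 and 0 of 38 without treated library 2, 11 and 0 without untreated library 4, 5 to 27 and 0 over the 7 fits). By edgeR 29 were higher and 0 lower at an unadjusted p under 0.05, and DESeq2 called 26 and 0. All 38 had a log2 fold change above 0, against 4177 of the 8360 tested genes. Ifi44 had the smallest p of all tested genes. It stood at 5.3, 6.31, 4.47 and 4.15 CPM in untreated libraries 1 to 4 and 107, 61.6 and 91.4 CPM in treated libraries 1 to 3 (log2 fold change 4.08 ± 0.28 (SE), adjusted p = 0.000889). Ly6a, which encodes the surface antigen Sca-1, stood at 12.4, 7.01, 8.66 and 11.1 CPM in untreated libraries 1 to 4 and 149, 103 and 215 CPM in treated libraries 1 to 3 (log2 fold change 4.01 ± 0.31 (SE), adjusted p = 0.00139). The groups were far apart for both genes, with fold changes of 16.9 and 16.1. Lgals3bp, a secreted galectin-binding protein, and Phf11b rose as well (log2 fold change 2.52 ± 0.28 (SE), adjusted p = 0.0044 and log2 fold change 2.32 ± 0.28 (SE), adjusted p = 0.00652). The ubiquitin-like Isg15 (log2 fold change 2.03 ± 0.47 (SE), adjusted p = 0.056) and its protease Usp18 (log2 fold change 2.33 ± 0.53 (SE), adjusted p = 0.0541) did not pass, and both rose without treated library 2 (log2 fold change 2.46, adjusted p = 0.0017 and log2 fold change 2.81, adjusted p = 0.000127).

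Immunity-related GTPases and guanylate-binding proteins attack the vacuoles of intracellular microbes. In this list 5 of 17 tested members rose and 0 fell, with a median log2 fold change of 0.84 (7 and 0 of 17 without treated library 2, 1 and 0 without untreated library 4, 1 to 7 and 0 over the 7 fits). The unadjusted p (edgeR) was under 0.05 for 9 higher and 0 lower members, and DESeq2 called 7 and 0. Iigp1 stood at 11.2, 28.7, 22.9 and 12.5 CPM in untreated libraries 1 to 4 and 106, 158 and 142 CPM in treated libraries 1 to 3 (log2 fold change 2.81 ± 0.32 (SE), adjusted p = 0.00515). Gm4951, a GTPase of the same family, stood at 1.77, 4.91, 8.94 and 9.69 CPM in untreated libraries 1 to 4 and 31, 67.9 and 53.9 CPM in treated libraries 1 to 3 (log2 fold change 3.02 ± 0.47 (SE), adjusted p = 0.0167). In both, every treated library lay above every untreated one. Gbp6, Irgm2 and Tgtp1 had log2 fold changes of 1.99, 1.13 and 2.17. Tgtp1 has a near copy, Tgtp2, and the division of reads between them is uncertain.

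**Figure D3:**
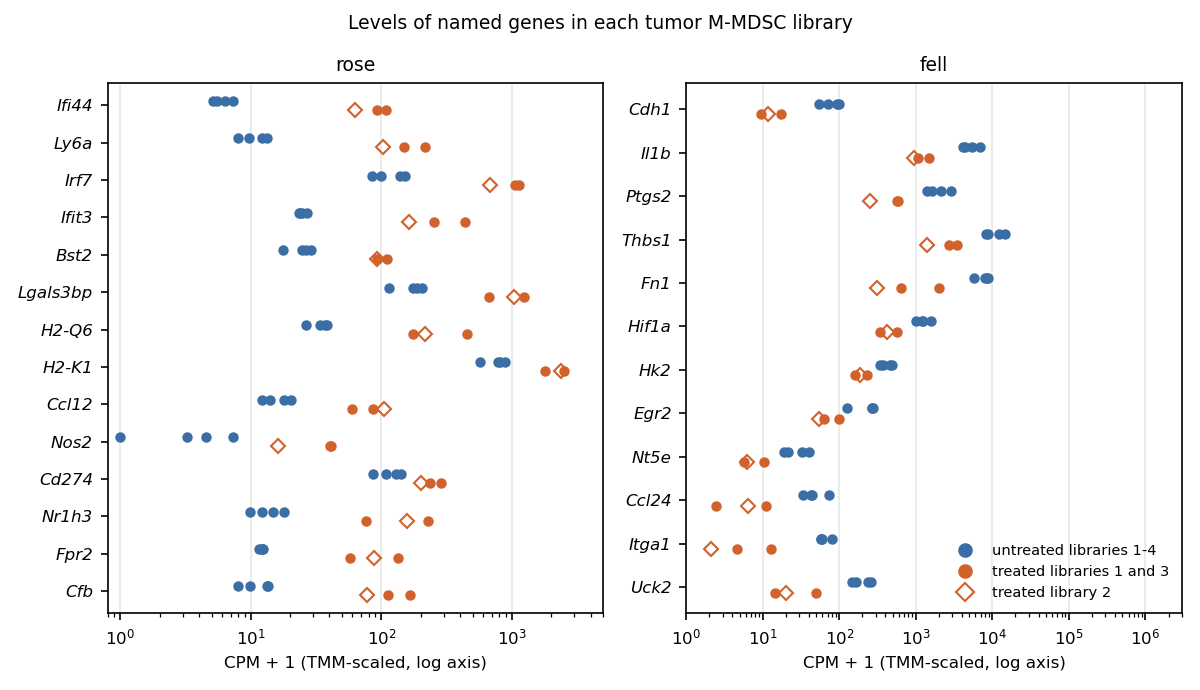
Levels of 14 genes that rose (left) and 12 that fell (right) in each tumor M-MDSC library, as TMM-scaled CPM plus 1 on a log axis, with 1 point per library. The treated and untreated libraries do not overlap for any of these genes; Ifi44 lies at 61.6 to 107 CPM in treated and 4.15 to 6.31 CPM in untreated libraries.

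MHC class I molecules show peptides from inside the cell to CD8 T cells. Of this list, 9 of 26 tested members rose and 0 fell, with a median log2 fold change of 0.65 (10 and 0 of 25 without treated library 2, 5 and 0 without untreated library 4, 3 to 10 and 0 over the 7 fits). Before adjustment, edgeR gave 14 higher and 0 lower members with p under 0.05, and DESeq2 called 13 and 0. H2-Q6, a nonclassical heavy chain, stood at 33, 25.2, 36 and 37.4 CPM in untreated libraries 1 to 4 and 175, 215 and 450.1 CPM in treated libraries 1 to 3 (log2 fold change 3.09 ± 0.34 (SE), adjusted p = 0.0043). The classical heavy chain H2-K1 stood at 783, 882, 804 and 566 CPM in untreated libraries 1 to 4 and 1788, 2387 and 2519 CPM in treated libraries 1 to 3 (log2 fold change 1.55 ± 0.24 (SE), adjusted p = 0.0149). H2-T22 and H2-Q7 rose with log2 fold change 1.88 ± 0.22 (SE), adjusted p = 0.00637 and log2 fold change 1.85 ± 0.24 (SE), adjusted p = 0.00873. B2m, the light chain of every class I molecule, had a log2 fold change of 1.47, and H2-D1 of 0.89; both rose. The heavy chains of the Q and T regions are similar in sequence, so reads may be shared among them. The peptide transporter gene Tap1 (log2 fold change 0.85 ± 0.22 (SE), adjusted p = 0.0657) and the immunoproteasome subunits Psmb8 (log2 fold change 0.33 ± 0.24 (SE), adjusted p = 0.511) and Psmb9 (log2 fold change 0.53 ± 0.26 (SE), adjusted p = 0.304) did not pass, and Tap1 rose without treated library 2 (log2 fold change 1.02, adjusted p = 0.0247).

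Of the MHC class II genes, which serve presentation to CD4 T cells, 0 of 10 tested members rose and 0 fell, with a median log2 fold change of -1.02 (0 and 6 of 10 without treated library 2, 0 to 1 and 0 to 6 over the 7 fits). In this list 1 member was higher and 3 lower at an unadjusted edgeR p under 0.05, and DESeq2 called 1 and 1. Ciita, the master regulator of class II genes, stood at 223, 236, 154 and 215 CPM in untreated libraries 1 to 4 and 27.6, 65.4 and 1.46 CPM in treated libraries 1 to 3 (log2 fold change -2.68 ± 0.80 (SE), adjusted p = 0.111). All 3 treated libraries lay below the untreated ones, and treated library 2 was the highest of the 3. Without that library, Ciita and H2-DMb1, a chain of the peptide exchanger, fell (log2 fold change -3.85, adjusted p = 0.0372 and log2 fold change -2.55, adjusted p = 0.0103). H2-DMa had a log2 fold change of -0.93, and Lgmn, a lysosomal protease in the list, of 1.23, and neither passed. Cd74 and H2-Ab1 had log2 fold changes of -1.24 and -1.27 and did not pass in the full comparison. Both fell without treated library 2 (log2 fold change -2.17, adjusted p = 0.022 and log2 fold change -2.63, adjusted p = 0.00264), and the median of the list was then -2.30. The calls in this list thus rested on which treated libraries were included, while the median was below 0 in both fits.

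Chemokines recruit leukocytes to tissue. Of the list, 4 of 18 tested members rose and 1 fell, with a median log2 fold change of 0.42 (3 and 1 of 17 without treated library 2, 2 and 0 without untreated library 4, 1 to 7 and 0 to 1 over the 7 fits). Ccl5, an attractant of T cells and monocytes, stood at 21.8, 22.4, 13.7 and 0 CPM in untreated libraries 1 to 4 and 204, 991 and 1041 CPM in treated libraries 1 to 3 (log2 fold change 5.59 ± 0.78 (SE), adjusted p = 0.0129). Treated library 1 was the lowest of the 3 and still far above the untreated libraries. The highest levels were those of treated library 3, which also held the most NK cell markers, and treated library 2, which held the most T cell markers (135 CPM, against 8.24 to 16.6 CPM in untreated libraries). The part of these cells in this result was not tested. Ccl12, a ligand of CCR2, stood at 12.9, 11.2, 17 and 19.4 CPM in untreated libraries 1 to 4 and 59.1, 103 and 85.2 CPM in treated libraries 1 to 3 (log2 fold change 2.46 ± 0.27 (SE), adjusted p = 0.0043). Ccl7, another CCR2 ligand, had a log2 fold change of 1.54. Cxcl13, which attracts B cells, had no count in any untreated library and 6.7, 56.2 and 43 CPM in the treated ones. It was at least 87.4-fold higher, taking 3 counts over the untreated group as the floor, with adjusted p = 0.0412. It did not reach a mean of 25 counts without treated library 2, so its call rests on that library. Ccl24, an eosinophil attractant, stood at 72.4, 43.5, 32.7 and 41.5 CPM in untreated libraries 1 to 4 and 10.1, 5.38 and 1.46 CPM in treated libraries 1 to 3 and fell (log2 fold change -3.09 ± 0.54 (SE), adjusted p = 0.0231). Cxcl10, a standard interferon-stimulated chemokine, did not pass (log2 fold change 0.27 ± 0.48 (SE), adjusted p = 0.814). Of chemokine receptors, 1 of 7 tested members rose and 0 fell, with a median log2 fold change of 0.24 (2 and 0 of 7 without treated library 2, 0 and 0 without untreated library 4, 0 to 2 and 0 to 2 over the 7 fits). By edgeR 2 were higher and 2 lower at an unadjusted p under 0.05, and DESeq2 called 1 and 0. Cxcr4 rose (log2 fold change 1.24 ± 0.24 (SE), adjusted p = 0.0308). Ccr2, the receptor that brings monocytes out of the marrow, stood at 1565, 1147, 1378 and 1449 CPM in untreated libraries 1 to 4 and 488, 33.8 and 54.6 CPM in treated libraries 1 to 3. The groups did not overlap, but the adjusted p was 0.112, and it stayed at 0.133 without treated library 2. Ccr1 and Ccr3 did not pass, at log2 fold changes of -0.86 and 3.82. Ccr3, an eosinophil receptor, was 97.6 CPM in treated library 3 and at most 7.12 CPM in the others, and it rose without treated library 2 (log2 fold change 4.38, adjusted p = 0.0481).

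Among cytokines and their receptors, 1 of 29 tested members rose and 2 fell, with a median log2 fold change of -0.016 (0 and 3 of 26 without treated library 2, 0 and 1 without untreated library 4, 0 to 4 and 0 to 6 over the 7 fits). Il1b, which encodes interleukin 1 beta, stood at 6865, 4325, 5390.1 and 4117 CPM in untreated libraries 1 to 4 and 1489.7, 943 and 1063 CPM in treated libraries 1 to 3 (log2 fold change -2.15 ± 0.30 (SE), adjusted p = 0.0111). All 3 treated libraries lay far below the untreated ones. Il13ra1, a receptor chain for interleukins 4 and 13, fell with log2 fold change -0.93 ± 0.19 (SE), adjusted p = 0.0389, and Ebi3, a subunit of interleukins 27 and 35, rose with log2 fold change 2.12 ± 0.45 (SE), adjusted p = 0.0412. Both calls were lost without treated library 2 (adjusted p = 0.055 and 0.0634). Il18bp, the decoy of interleukin 18, did not pass (log2 fold change 2.65 ± 0.59 (SE), adjusted p = 0.0532).

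The mediators by which MDSC restrain T cells moved in both directions. In all, 3 of 17 tested members rose and 2 fell, with a median log2 fold change of 0.18 (4 and 2 of 16 without treated library 2, 0 and 0 without untreated library 4, 0 to 4 and 0 to 2 over the 7 fits). Nos2, the inducible nitric oxide synthase, stood at 3.53, 6.31, 2.23 and 0 CPM in untreated libraries 1 to 4 and 40.2, 15.2 and 39.7 CPM in treated libraries 1 to 3 and rose (log2 fold change 3.28 ± 0.59 (SE), adjusted p = 0.0254). The checkpoint ligand gene Cd274, which encodes PD-L1, stood at 139, 128, 85.5 and 108 CPM in untreated libraries 1 to 4 and 233, 201 and 283 CPM in treated libraries 1 to 3 and rose (log2 fold change 1.05 ± 0.22 (SE), adjusted p = 0.0383). Havcr2, which encodes TIM-3, rose as well (log2 fold change 0.95 ± 0.19 (SE), adjusted p = 0.0369). Ptgs2, the cyclooxygenase that starts prostaglandin synthesis, stood at 2839.8, 1627, 2155 and 1389 CPM in untreated libraries 1 to 4 and 584, 249 and 569 CPM in treated libraries 1 to 3 and fell (log2 fold change -2.10 ± 0.38 (SE), adjusted p = 0.0266). Nt5e, which encodes CD73, the ectoenzyme that makes adenosine, fell with log2 fold change -2.08 ± 0.40 (SE), adjusted p = 0.0305. None of the 5 calls was kept without untreated library 4, where the adjusted p ran from 0.0522 to 0.0827. Of costimulatory molecules and ligands of T cells, 1 of 14 tested members rose and 1 fell, with a median log2 fold change of 0.036 (1 and 1 of 14 without treated library 2, 0 and 0 without untreated library 4, 0 to 1 and 0 to 2 over the 7 fits). The receptor Slamf7 rose (log2 fold change 2.40 ± 0.38 (SE), adjusted p = 0.0169), and Tnfsf14, the ligand LIGHT, fell (log2 fold change -1.98 ± 0.33 (SE), adjusted p = 0.0207). Tnfsf9 and Cd244a did not pass, at -1.92 and -0.92.

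Genes commonly used to describe macrophage states are named M1 and M2, and the lists share members with those for chemokines and suppressive mediators. Of the M1 list, 5 of 19 tested members rose and 2 fell, with a median log2 fold change of 0.29 (5 and 2 of 17 without treated library 2, 3 and 1 without untreated library 4, 1 to 7 and 0 to 2 over the 7 fits). The members that rose were Fpr2, Ccl5, Marco, Nos2 and Cd38, and those that fell were Il1b and Ptgs2. Fpr2, a formyl peptide receptor, stood at 11.2, 10.5, 11.5 and 11.1 CPM in untreated libraries 1 to 4 and 56.1, 87.4 and 133 CPM in treated libraries 1 to 3 (log2 fold change 3.05 ± 0.30 (SE), adjusted p = 0.00325). Its untreated values lay close together, and each treated value was far above them. Marco, a scavenger receptor, rose in the full comparison (log2 fold change 3.69 ± 0.58 (SE), adjusted p = 0.0169) but averaged under 25 counts without treated library 2 and was not tested there. Of the M2 list, 0 of 16 tested members rose and 2 fell, with a median log2 fold change of -0.24 (1 and 3 of 14 without treated library 2, 0 and 0 without untreated library 4, 0 to 1 and 0 to 3 over the 7 fits). The unadjusted p (edgeR) was under 0.05 for 3 higher and 3 lower members, and DESeq2 called 2 and 2. Those that fell were Ccl24 and the transcription factor Egr2 (log2 fold change -1.72 ± 0.33 (SE), adjusted p = 0.0308). Folr2 and Pparg were higher in treated libraries without passing, at 2.61 and 2.12.

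Of genes of lipid-associated and tissue macrophages, 4 of 21 tested members rose and 0 fell, with a median log2 fold change of 1.02 (5 and 1 of 19 without treated library 2, 1 and 0 without untreated library 4, 1 to 9 and 0 to 1 over the 7 fits). Before adjustment, edgeR gave 12 higher and 0 lower members with p under 0.05, and DESeq2 called 9 and 0. Nr1h3, which encodes the oxysterol receptor LXR alpha, stood at 8.83, 16.8, 11.2 and 13.8 CPM in untreated libraries 1 to 4 and 75.8, 157 and 225 CPM in treated libraries 1 to 3 (log2 fold change 3.62 ± 0.39 (SE), adjusted p = 0.00428). Gpnmb, a transmembrane glycoprotein of lipid-laden macrophages, rose with log2 fold change 4.30 ± 0.82 (SE), adjusted p = 0.0324. The cholesterol exporter Abcg1 and the lysosomal protease Ctsb rose with log2 fold change 1.11 ± 0.21 (SE), adjusted p = 0.0305 and log2 fold change 1.34 ± 0.24 (SE), adjusted p = 0.0254. These 4 were also called without treated library 2, in which the macrophage markers are highest, but only Nr1h3 was called without untreated library 4. Of the 7 fits that left out 1 library, Nr1h3 was called in 7 and the other genes in 2 each. Apoe did not pass (log2 fold change 1.35 ± 0.59 (SE), adjusted p = 0.252) and had a log2 fold change of 0.42 without that library. Treated library 3 stays in that fit, and its macrophage marker sum of 11283 CPM is also above the untreated maximum of 8679 CPM. The part of macrophage markers in these results was not tested.

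Complement and Fc receptors are made by macrophages and monocytes in tissue. Of this list, 3 of 16 tested members rose and 1 fell, with a median log2 fold change of 0.91 (3 and 1 of 16 without treated library 2, 2 and 1 without untreated library 4, 1 to 8 and 1 over the 7 fits). Cfb, which encodes complement factor B of the alternative pathway, stood at 8.83, 12.6, 12.3 and 6.92 CPM in untreated libraries 1 to 4 and 111, 75.9 and 165 CPM in treated libraries 1 to 3 (log2 fold change 3.46 ± 0.32 (SE), adjusted p = 0.00216). Every treated library was above every untreated one. Fcgr4, an activating Fc receptor, and C4b of the classical pathway rose (log2 fold change 1.97 ± 0.33 (SE), adjusted p = 0.0207 and log2 fold change 1.53 ± 0.27 (SE), adjusted p = 0.0229). The C1q genes C1qa, C1qb and C1qc had log2 fold changes of 2.33, 1.76 and 2.20 and did not pass. Of C-type lectins and scavenger receptors, 2 of 16 tested members rose and 0 fell, with a median log2 fold change of -0.15 (1 and 0 of 15 without treated library 2, 1 and 0 without untreated library 4, 0 to 4 and 0 over the 7 fits). In this list 5 members were higher and 1 lower at an unadjusted edgeR p under 0.05, and DESeq2 called 4 and 1. The members that rose were Marco and Clec12a, an inhibitory lectin (log2 fold change 1.16 ± 0.23 (SE), adjusted p = 0.0308). Cd14, the coreceptor for lipopolysaccharide, and Clec4a1 did not pass, at -1.66 and 1.10.

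**Figure D4:**
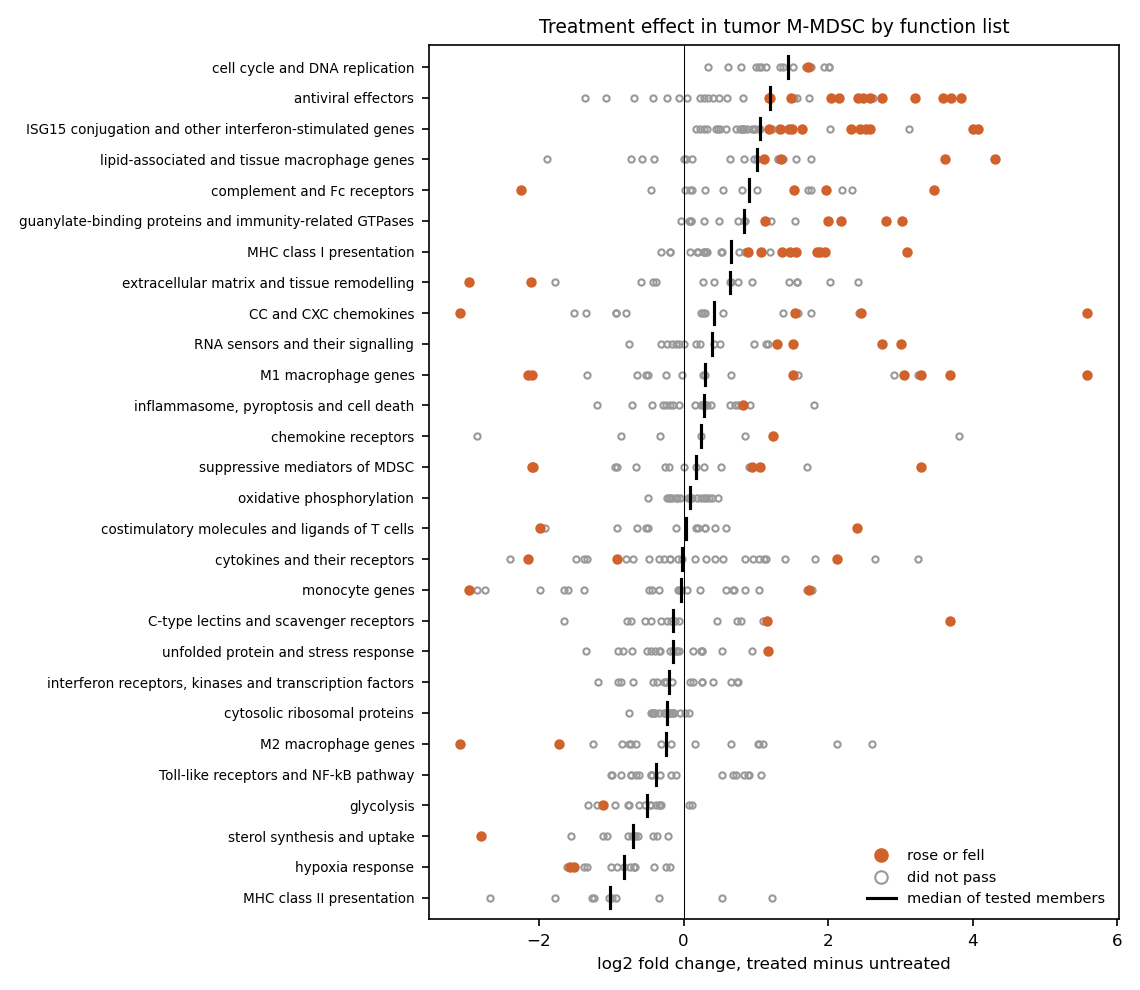
Log2 fold change of each tested member of 28 function lists (1 point per gene, filled where it rose or fell; Cxcl13 left out), with a bar at the median of the tested members. The medians of the antiviral and interferon-stimulated lists lie at 1.20 and 1.05, and those of the hypoxia and MHC class II lists at -0.83 and -1.02.

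In the list of the other Toll-like receptors and the NF-kB pathway, which leaves out Tlr3 and Tlr7 (both rose and were counted with the RNA sensors), 0 of 20 tested members rose and 0 fell, with a median log2 fold change of -0.38 (1 and 0 of 20 without treated library 2, 0 to 1 and 0 over the 7 fits). By edgeR 5 were higher and 4 lower at an unadjusted p under 0.05, and DESeq2 called 2 and 3. The members with the smallest p were the RNA and DNA receptors Tlr13 (log2 fold change 0.84 ± 0.19 (SE), adjusted p = 0.0514) and Tlr9 (log2 fold change 0.90 ± 0.21 (SE), adjusted p = 0.057), with Nfkb1 at -0.73 and Tlr2 at -0.72. Of genes of inflammasomes, pyroptosis and cell death, 1 of 24 tested members rose and 0 fell, with a median log2 fold change of 0.28 (3 and 0 of 24 without treated library 2, 0 and 0 without untreated library 4, 0 to 3 and 0 over the 7 fits). The unadjusted p (edgeR) was under 0.05 for 5 higher and 2 lower members, and DESeq2 called 4 and 2. Bcl2l1, which encodes the survival protein BCL-XL, rose by a small amount (log2 fold change 0.82 ± 0.17 (SE), adjusted p = 0.0396) and lost the call without treated library 2 (adjusted p = 0.0533). The DNA sensor Aim2, the death protein gene Bcl2l11 and Ifi204 did not pass, at 0.72, -0.71 and 0.83.

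Of the monocyte genes, 1 of 25 tested members rose and 1 fell, with a median log2 fold change of -0.038 (4 and 3 of 25 without treated library 2, 0 and 0 without untreated library 4, 0 to 4 and 0 to 3 over the 7 fits). Fn1, which encodes fibronectin, stood at 7905, 5716, 8566 and 8736 CPM in untreated libraries 1 to 4 and 2013, 305 and 643 CPM in treated libraries 1 to 3. All treated libraries lay below the untreated ones, with treated library 2 the lowest (log2 fold change -2.97 ± 0.61 (SE), adjusted p = 0.0383). Spn, which encodes CD43, a marker of nonclassical monocytes, rose (log2 fold change 1.74 ± 0.38 (SE), adjusted p = 0.0461). Adgre4 and Vcan did not pass, at 1.77 and -2.75, and treated library 2 was the lowest of the treated libraries for both. Without it, Adgre4 rose and Vcan fell (log2 fold change 2.15, adjusted p = 0.0055 and log2 fold change -2.16, adjusted p = 0.0243). Fn1 kept its call without that library (log2 fold change -2.53, adjusted p = 0.0198). The epithelial list is given here too, because Cdh1 belongs to it. Cdh1, which encodes E-cadherin, stood at 91.2, 98.2, 70.7 and 54 CPM in untreated libraries 1 to 4 and 16.3, 10.8 and 8.38 CPM in treated libraries 1 to 3 and fell (log2 fold change -2.75 ± 0.31 (SE), adjusted p = 0.00483). The keratin genes Krt8 and Krt18 of the same list stood at 4.12, 110.1, 33.2 and 45.7 CPM in untreated libraries 1 to 4 and 31, 37 and 22.2 CPM in treated libraries 1 to 3 and at 7.06, 68.7, 26 and 34.6 CPM in untreated libraries 1 to 4 and 21.4, 37 and 28.8 CPM in treated libraries 1 to 3, with overlapping groups. The 8 epithelial markers summed to 113 to 372 CPM in untreated and 75.7 to 107 CPM in treated libraries, against 5193 to 6732 CPM of the library total in bulk tumor. Their part in the fall of Cdh1 was not tested.

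Energy metabolism and oxygen sensing held few calls, all downward. For glycolysis, 0 of 16 tested members rose and 1 fell, with a median log2 fold change of -0.50 (0 and 1 of 16 without treated library 2, 0 and 0 without untreated library 4, 0 and 0 to 5 over the 7 fits). Before adjustment, edgeR gave 0 higher and 5 lower members with p under 0.05, and DESeq2 called 0 and 3. Hk2, the inducible hexokinase, stood at 490.3, 341, 368 and 458 CPM in untreated libraries 1 to 4 and 226, 187 and 161 CPM in treated libraries 1 to 3 (log2 fold change -1.11 ± 0.22 (SE), adjusted p = 0.0308). Slc2a1, Pfkp and Pfkl did not pass, at -1.20, -1.32 and -0.76. For the hypoxia response, 0 of 15 tested members rose and 2 fell, with a median log2 fold change of -0.83 (0 and 3 of 15 without treated library 2, 0 and 0 without untreated library 4, 0 and 0 to 5 over the 7 fits). In this list 0 members were higher and 9 lower at an unadjusted edgeR p under 0.05, and DESeq2 called 0 and 7. All 15 had a log2 fold change below 0, against 4183 of the 8360 tested genes. Hif1a, the oxygen-regulated subunit of the hypoxia-inducible factor, stood at 1576, 1002, 1197 and 1248 CPM in untreated libraries 1 to 4 and 568, 419 and 335 CPM in treated libraries 1 to 3 (log2 fold change -1.51 ± 0.26 (SE), adjusted p = 0.0224). Egln3, a prolyl hydroxylase that acts on that subunit, fell with log2 fold change -1.57 ± 0.28 (SE), adjusted p = 0.0254. Without untreated library 4 both calls were lost (adjusted p = 0.0585 and 0.0569). Vegfa and Egln1 did not pass, at -1.37 and -0.93, and Vegfa fell without treated library 2 (log2 fold change -1.53, adjusted p = 0.0396).

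For the extracellular matrix and its remodelling, 0 of 17 tested members rose and 2 fell, with a median log2 fold change of 0.64 (0 and 3 of 16 without treated library 2, 0 and 0 without untreated library 4, 0 to 2 and 0 to 3 over the 7 fits). By edgeR 5 were higher and 3 lower at an unadjusted p under 0.05, and DESeq2 called 3 and 3. Thbs1, which encodes thrombospondin 1, stood at 14613, 8806, 12041 and 8164 CPM in untreated libraries 1 to 4 and 3437, 1388 and 2733 CPM in treated libraries 1 to 3 (log2 fold change -2.11 ± 0.39 (SE), adjusted p = 0.0267). Its treated libraries all lay below the untreated ones. The metalloproteinases Mmp19 and Mmp14 had log2 fold changes of -1.78 and 1.58 and did not pass. For sterol synthesis and uptake, 0 of 13 tested members rose and 1 fell, with a median log2 fold change of -0.70 (0 and 0 of 13 without treated library 2, 0 and 0 without untreated library 4, 0 and 0 to 2 over the 7 fits). The unadjusted p (edgeR) was under 0.05 for 0 higher and 5 lower members, and DESeq2 called 0 and 3. All 13 had a log2 fold change below 0.

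For the cell cycle and DNA replication, 1 of 18 tested members rose and 0 fell, with a median log2 fold change of 1.44 (3 and 0 of 15 without treated library 2, 1 and 0 without untreated library 4, 0 to 3 and 0 over the 7 fits). Before adjustment, edgeR gave 15 higher and 0 lower members with p under 0.05, and DESeq2 called 11 and 0. All 18 had a log2 fold change above 0. Mcm6, a subunit of the replicative helicase, stood at 17.1, 35.8, 27.1 and 22.1 CPM in untreated libraries 1 to 4 and 94.2, 69.7 and 91.8 CPM in treated libraries 1 to 3 (log2 fold change 1.73 ± 0.26 (SE), adjusted p = 0.0146). Mcm7, Pcna and Birc5 did not pass, at 1.76, 0.79 and 1.94. Groups did not overlap for 15 of the 18, against 19.5% of all tested genes. The cyclin gene Ccnd2, which drives entry into the cycle and is in no list, stood at 50.6, 71.5, 61.7 and 55.4 CPM in untreated libraries 1 to 4 and 188, 167 and 277 CPM in treated libraries 1 to 3 and rose (log2 fold change 1.81 ± 0.23 (SE), adjusted p = 0.00694).

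Housekeeping lists held few calls. For oxidative phosphorylation, 0 of 19 tested members rose and 0 fell, with a median log2 fold change of 0.083 (0 and 0 of 19 without treated library 2). In this list 0 members were higher and 0 lower at an unadjusted edgeR p under 0.05, and DESeq2 called 0 and 0. The members Sdhb, Uqcrc2 and Cox5a had log2 fold changes of 0.47, 0.35 and 0.30. For cytosolic ribosomal proteins, 0 of 20 tested members rose and 0 fell, with a median log2 fold change of -0.23 (0 and 0 of 20 without treated library 2, 0 and 0 to 1 over the 7 fits). By edgeR 0 were higher and 2 lower at an unadjusted p under 0.05, and DESeq2 called 0 and 1. Rpl13, Rps4x, Rps9 and Rpl5 had log2 fold changes of -0.75, -0.41, -0.45 and -0.42. For the unfolded protein and stress response, 1 of 21 tested members rose and 0 fell, with a median log2 fold change of -0.15 (0 and 0 of 21 without treated library 2, 0 and 0 without untreated library 4, 0 to 2 and 0 to 1 over the 7 fits). The unadjusted p (edgeR) was under 0.05 for 2 higher and 3 lower members, and DESeq2 called 2 and 2. Ddit3, which encodes the stress factor CHOP, rose (log2 fold change 1.16 ± 0.23 (SE), adjusted p = 0.0348), and lost the call without treated library 2 (adjusted p = 0.0565). Atf3, Dnajb1 and Fos did not pass, at -1.36, 0.95 and -0.72.

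The 10 highest fold changes also held genes of no function list. Cd300e, an activating receptor of monocytes, stood at 0, 4.91, 0.838 and 0 CPM in untreated libraries 1 to 4 and 20.1, 95.9 and 83.8 CPM in treated libraries 1 to 3 (log2 fold change 5.53 ± 0.87 (SE), adjusted p = 0.0191). Untreated libraries 1 and 4 held no count, and 3 counts in untreated library 3 are 0.832 CPM. The size of this rise is therefore uncertain. Saa3, the acute-phase gene with the motif in its promoter, stood at 17.7, 21.7, 16.8 and 19.4 CPM in untreated libraries 1 to 4 and 144, 146 and 856 CPM in treated libraries 1 to 3 (log2 fold change 4.35 ± 0.67 (SE), adjusted p = 0.0174). Klra17, a receptor of the Ly49 family, had log2 fold change 4.07 ± 0.86 (SE), adjusted p = 0.0441 and did not pass without treated library 2 (adjusted p = 0.0658). Kdr, a vascular endothelial growth factor receptor that belongs to the endothelial list, stood at 1.18, 2.8, 3.35 and 0 CPM in untreated libraries 1 to 4 and 27.6, 10.3 and 72.5 CPM in treated libraries 1 to 3 (log2 fold change 4.00 ± 0.77 (SE), adjusted p = 0.0308). The 7 endothelial markers summed to 33.2 to 82.7 CPM in untreated and 101 to 228 CPM in treated libraries, and their part in the rise of Kdr was not tested. Htra4, a secreted serine protease, had log2 fold change 3.84 ± 0.48 (SE), adjusted p = 0.00744. Outside the 10 highest, Siglec1, the sialoadhesin of macrophages, rose with log2 fold change 1.98 ± 0.26 (SE), adjusted p = 0.00902.

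The 10 lowest included Itga1, Plcb1, Flrt3, Ccl24, Fn1, Uck2, Nrg1, Cdh1 and Kbtbd11. Itga1, a collagen-binding integrin, stood at 78.9, 56.8, 58.1 and 56.7 CPM in untreated libraries 1 to 4 and 11.7, 1.12 and 3.64 CPM in treated libraries 1 to 3 (log2 fold change -3.61 ± 0.61 (SE), adjusted p = 0.0224). Plcb1, a phospholipase, stood at 151, 157, 137 and 259 CPM in untreated libraries 1 to 4 and 31.8, 2.24 and 14.6 CPM in treated libraries 1 to 3 (log2 fold change -3.48 ± 0.70 (SE), adjusted p = 0.0389). Treated library 2 was the lowest for both. The uridine kinase Uck2, the growth factor Nrg1, the adhesion protein Flrt3 and Kbtbd11 fell with log2 fold changes of -2.92, -2.87, -3.27 and -2.71. Padi2, a peptidylarginine deiminase, fell with log2 fold change -2.13 ± 0.26 (SE), adjusted p = 0.00652. The unnamed locus Gm45221 had log2 fold change -1.98 ± 0.18 (SE), adjusted p = 0.00216, and Nav1 log2 fold change -1.95 ± 0.21 (SE), adjusted p = 0.00414.

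M-MDSC from the spleens of the same experiment (4 treated and 4 untreated libraries) were set beside those of the tumor. Of the 152 genes that rose in the tumor, 139 were tested in the spleen and 108 rose there as well. These 108 were 71.1% of the genes that rose in tumor M-MDSC and 11.5% of the 942 that rose in spleen M-MDSC (10.7% of 8827 tested; 19.6% were called in either direction). Of the 89 that fell, 72 were tested and 43 fell in the spleen, which is 48.3% of the genes that fell in the tumor and 5.44% of the 791 that fell in the spleen (8.96% of those tested). Irf7, Ifit3 and Bst2 had log2 fold changes of 2.95, 3.62 and 2.68 in the spleen, against 3.01, 3.59 and 2.04 in the tumor. The difference of the 2 effects had adjusted p = 0.952, 0.995 and 0.278.

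The difference itself was tested as an interaction term over the 4 groups. The titles of both organs share these numbers, so the libraries probably come from the same mice, and the fit treats their libraries as independent because no label matches the columns to mice. In it 69 of 8730 genes passed (0.79%; 0.229% higher and 0.561% lower), 20 with the higher log2 fold change in the tumor and 49 with the lower. The largest differences toward the spleen were in Ccl4, Acod1, Gm4951, Hbegf and Maff. Ccl4, an attractant of T cells and macrophages, had a log2 fold change of 0.25 in the tumor and 5.56 in the spleen (difference -5.30 ± 0.90 (SE), adjusted p = 0.0244). Acod1, the mitochondrial enzyme that makes itaconate, had 2.91 and 7.79 (difference -4.87 ± 1.02 (SE), adjusted p = 0.0458). Gm4951 rose in both, with 3.02 and 7.80 (difference -4.73 ± 0.94 (SE), adjusted p = 0.0368). Hbegf and Maff had too few counts for the test in the spleen alone and differed by -4.26 ± 0.78 (SE), adjusted p = 0.028 and -4.15 ± 0.81 (SE), adjusted p = 0.0336. Cxcl10 had 0.27 in the tumor and 4.36 in the spleen (difference -4.08 ± 0.74 (SE), adjusted p = 0.0302). The interferon-stimulated genes Ly6a and H2-Q7 rose in both places and less in the tumor (differences -2.45 ± 0.52 (SE), adjusted p = 0.0458 and -1.48 ± 0.33 (SE), adjusted p = 0.0489). Ccnd2 (difference -3.27 ± 0.42 (SE), adjusted p = 0.00209) was also called in each of the 15 fits that left out 1 library, whereas Ly6a was called in 4 and H2-Q7 in 3 of them. Ccl4 was called in 11 of these fits, Cxcl10 in 9, Gm4951 and Maff in 6 each and Acod1 in 4, and Hbegf in 9 of the 14 that tested it. Without treated library 2 these last differences were -2.22 (adjusted p = 0.0731) for Ly6a and -1.30 (adjusted p = 0.106) for H2-Q7. In the alternative fit with assumed mice, Acod1, Cxcl10, Maff and Ly6a were not called (edgeR adjusted p from 0.0508 to 0.0681). Ccl4, Gm4951, Hbegf, H2-Q7 and Ccnd2 were called there.

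**Figure D5:**
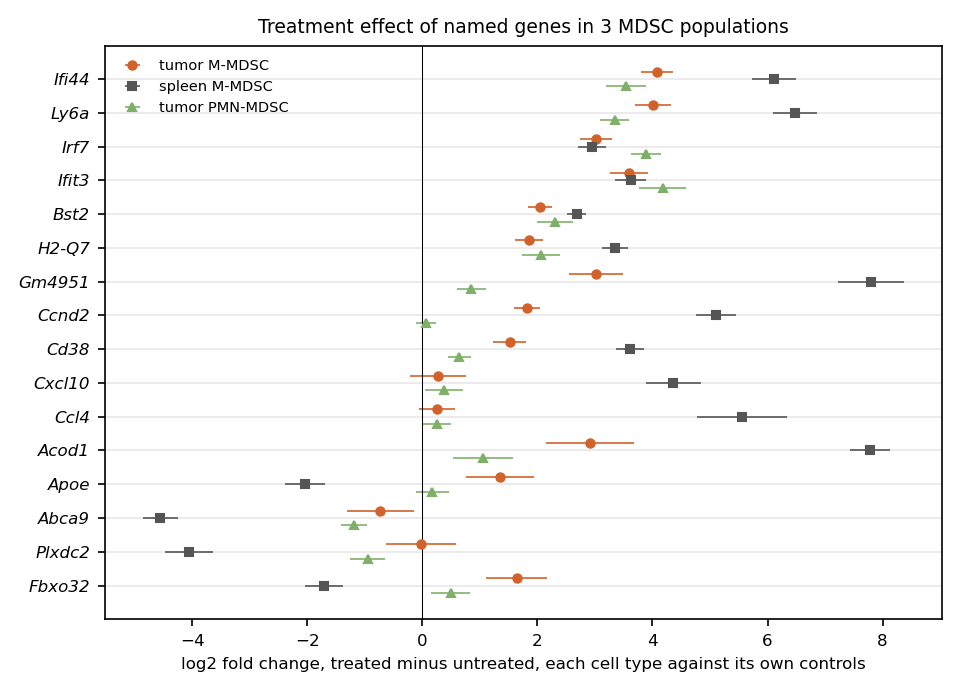
Log2 fold change (treated minus untreated) of 16 genes in tumor M-MDSC, spleen M-MDSC and tumor PMN-MDSC, each against its own controls, with bars of 1 SE. Ccl4, Cxcl10 and Acod1 lie further right in the spleen than in the tumor, and Apoe, Abca9 and Plxdc2 further left.

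The largest differences toward the tumor included those in Plxdc2, Abca9, Apoe and Fbxo32. Plxdc2, a membrane protein, had a log2 fold change of -0.024 in the tumor and -4.06 in the spleen (difference 4.06 ± 0.87 (SE), adjusted p = 0.0462). Abca9, a transporter of the ABC family, had -0.73 and -4.55 (difference 3.86 ± 0.72 (SE), adjusted p = 0.0323). The lipoprotein gene Apoe had 1.35 and -2.04 (difference 3.42 ± 0.73 (SE), adjusted p = 0.0458). The effects on Fbxo32 differed by 3.39 ± 0.65 (SE), adjusted p = 0.0323. Of the 15 fits that left out 1 library, Fbxo32 was called in 6, Abca9 in 5 and Plxdc2 and Apoe in 3 each. Treated library 2 held the highest level of each of these 4 among the treated tumor libraries. Without it the differences were 2.69 (adjusted p = 0.0463) for Plxdc2, 2.54 (adjusted p = 0.0153) for Abca9, 2.47 (adjusted p = 0.093) for Apoe and 2.54 (adjusted p = 0.0493) for Fbxo32. Without that library 12 genes passed with the higher and 35 with the lower log2 fold change in the tumor. In the alternative fit with assumed mice, Abca9 and Apoe were not called (edgeR adjusted p = 0.0747 and 0.133). Plxdc2 and Fbxo32 were called there (edgeR adjusted p = 0.0301 and 0.0476).

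Tumor PMN-MDSC (4 treated and 4 untreated libraries) are the granulocytic counterpart by their sort as Ly6G+ cells. Their titles share the numbers too, and they were again fitted as independent. Scaled to the library total, Ly6g ranged from 0 to 9.19 CPM in untreated and from 5.02 to 76.2 CPM in treated tumor PMN-MDSC. It ranged from 34.5 to 84.7 CPM in untreated PMN-MDSC of the spleen. C1qa ranged from 508 to 655 CPM in untreated tumor PMN-MDSC and from 125 to 334 CPM in untreated tumor M-MDSC. Apoe ranged from 6929 to 9895 CPM and from 1774 to 6123 CPM. The part of macrophage genes in this comparison was not tested. Of the genes that rose in tumor M-MDSC, 150 were tested in PMN-MDSC and 74 rose there (2.29% of 8308 rose, and 3.36% were called in either direction). Of those that fell, 86 were tested and 27 fell (1.07% of those tested). By the interaction term, 2 of 8385 genes differed (0.0239%), and both rose more in M-MDSC; 720 had an unadjusted p under 0.05, and DESeq2 called 10 higher and 12 lower. The effect on Ccnd2 was 1.81 (log2) in the M-MDSC and 0.063 in PMN-MDSC (difference 1.75 ± 0.28 (SE), adjusted p = 0.0467). P2ry14, a receptor for UDP-sugars, had 2.66 and 0.20 (difference 2.45 ± 0.39 (SE), adjusted p = 0.0467). They were called in 2 and 1 of the 15 fits that left out 1 library, so this difference depends on single libraries. Neither was called in the alternative fit with assumed mice (edgeR adjusted p = 0.109 and 0.118). Iigp1 and Gm4951, which rose in M-MDSC, had log2 fold changes of 0.29 and 0.85 in PMN-MDSC and no called difference.

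The 5 genes with the largest spread among the untreated libraries were Gm10222, Gm24950, Gm28437, Pgk1-rs7 and mt-Atp8. The noncoding Gm24950, annotated as a small nuclear RNA, stood at 449, 168, 0.838 and 0 CPM in untreated libraries 1 to 4 and 6.28, 2.24 and 0 CPM in treated libraries 1 to 3. Gm10222 and Gm28437 are unprocessed pseudogenes, and Pgk1-rs7 is a processed one. Untreated library 4, the shallowest, held no count of any of the 5. The gene mt-Atp8, a mitochondrial subunit of ATP synthase, stood at 108, 169.7, 99.2 and 0 CPM in untreated libraries 1 to 4 and 4.61, 190.4 and 91 CPM in treated libraries 1 to 3. The adjusted p of the 5 was between 0.156 and 0.999.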

How the data were processed

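Total RNA of sorted cells was sequenced from low input after depletion of ribosomal RNA, with PCR and without molecular identifiers. The authors deposited one table of raw counts per gene, made by mapping to the mouse genome mm10 and strand-specific counting with featureCounts on a Gencode annotation. The submitters' processing notes name BWA, featureCounts and Subread 1.4.6-p3. Samples were grouped by the labels, and columns were matched to groups by name. Within groups, 0 of 9 library pairs were identical. One treated library with 10 counts was left out.

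Genes averaging 25 or more counts across the 7 libraries were tested with edgeR 4.0.16 (R 4.3.3, limma 3.58.1; TMM scaling, robust quasi-likelihood F-test, Benjamini-Hochberg adjustment over all tested genes). Levels are TMM-scaled CPM (counts relative to library size), as are marker sums, and the levels in other populations and in bulk tumor are scaled to the library total. The SE is the absolute log2 fold change divided by the square root of F. Differences between cell populations are interaction terms in a fit over their 4 groups. DESeq2 1.42.0, other scalings and filters, a fit over 4 M-MDSC groups, leaving out each library and a block by assumed mouse were alternatives. The scripts were tested on simulated data. Promoters are from RefSeq (GRCm38.p6).

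The 28 function lists and 12 marker lists, like the comparison itself, were chosen with earlier results of these data known. Named are the 10 highest and 10 lowest fold changes among called genes with groups apart, the 4 members of each list with the smallest p, other list members with their values, the sorting genes, the 5 largest differences from each other population in each direction and the 5 genes with the largest untreated spread. Of 578 list entries, 576 were found (Clec6a and Mnda were not). Some genes that this rule names are not reported here. Intervals from counts cover counting error only.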

Additional observations from a re-analysis of the deposited data

Results flagged for a closer look

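The treatment effect in tumor M-MDSC differed from that in spleen M-MDSC by the interaction term for 17 of the named genes. The log2 fold change was lower in the tumor for Ccl4 (difference -5.30), Acod1 (-4.87), Gm4951 (-4.73), Hbegf (-4.26), Maff (-4.15), Cxcl10 (-4.08), Cdh1 (-3.78), Ccnd2 (-3.27), Ly6a (-2.45), Cd38 (-2.07), Pfkl (-1.63), H2-Q7 (-1.48) and Jak2 (-1.35). It was higher in the tumor for Plxdc2 (difference 4.06), Abca9 (3.86), Apoe (3.42) and Fbxo32 (3.39). Without treated library 2 the adjusted p (edgeR) against spleen M-MDSC was 0.0893 for Cdh1, 0.0731 for Ly6a, 0.106 for H2-Q7 and 0.093 for Apoe, and Cdh1 was called in 2 of the 15 fits that left out 1 library. Between tumor M-MDSC and tumor PMN-MDSC the effect differed for P2ry14 (difference 2.45) and Ccnd2 (1.75). Without treated library 2 the adjusted p (edgeR) of P2ry14 was 0.12. In the alternative fit with assumed mice, neither P2ry14 nor Ccnd2 was called against tumor PMN-MDSC. Abca9, Acod1, Apoe, Cdh1, Cxcl10, Jak2, Ly6a and Maff were not called against spleen M-MDSC there.

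In 9 of 165 named genes, 1 of the 4 untreated libraries stood apart from the other untreated libraries by Dixon's criterion, which flags about 1 group in 20 by chance. Untreated library 4, with the fewest counts, was the one apart for Atf3 (1360.4 CPM), Plcb1 (259 CPM), Cyp51 (101 CPM) and Rpl13 (77.5 CPM). Untreated library 1 stood apart for Slc2a1 (394 CPM) and Itga1 (78.9 CPM). Untreated library 2 stood apart for Egr2 (124 CPM) and Cd300e (4.91 CPM), and untreated library 3 for Clec4a1 (120.1 CPM).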

How the results depend on the processing

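No paired analysis was possible for treated against untreated mice because they share no number in the titles. For the differences between populations, a replicate block was added after seeing the data, with libraries whose column numbers fall in the same run of 4 taken as 1 mouse, which no label states. Over 7 pairs the deviations from the group means correlated at -0.00035 to 0.24 with spleen M-MDSC (above 0.1 in 4) and at 0.035 to 0.49 with PMN-MDSC (above 0.1 in 5), and 5 of 7 tumor libraries correlated best with their own run in each. With this block the difference from spleen M-MDSC held 23 genes higher and 35 lower, 9 and 25 of them among the 20 and 49, and that from PMN-MDSC 0 and 1 (1015 at an unadjusted edgeR p under 0.05), with P2ry14 and Ccnd2 at adjusted p = 0.118 and 0.109 (edgeR). Of the named genes, Abca9, Acod1, Apoe, Cdh1, Cxcl10, Jak2, Ly6a and Maff were not called against spleen M-MDSC under the block (adjusted p from 0.0508 to 0.133), and their differences kept their direction. The 152 genes that rose and 89 that fell became 657 and 407 with no filter on low counts, 487 and 334 in the fit over 4 M-MDSC groups, and 449 and 347 with DESeq2. With the stricter limit of an adjusted p below 0.001 and 2-fold, 1 and 0 were left. Leaving out 1 library gave 23 to 295 genes that rose and 7 to 210 that fell. The difference from spleen M-MDSC, 20 genes higher and 49 lower, became 108 and 199 with DESeq2 and 310 and 349 with no filter. Leaving out 1 library gave 0 to 115 and 7 to 135. The difference from tumor PMN-MDSC, 2 higher and 0 lower, became 10 and 12 with DESeq2 and 77 and 84 with no filter. Leaving out 1 library gave 0 to 12 in each direction. The cause of these shifts was not tested. Among genes that rose and had a promoter, the share with a motif was 21.9% for GAAA with 2 bases between it and its repeat. The share was 4.5% among all tested genes with a promoter. For the form 1 base shorter, GAAANNGAA, these shares were 25.4% and 9.44%, and for TTCNNNGAA, which is another motif, 13.2% and 8.17%. Counts of list members with 1 library left out were added after seeing the data. Of the 23 function lists with a call, 11 held none without untreated library 4, 2 held none without treated library 2 and 14 held none in at least 1 of the 7 fits. No named gene that rose or fell changed direction under these alternatives. Depth was lowest in untreated library 4, where 3 counts are 3.78 CPM.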
